A study of Homo sapiens with 9 samples.

Results

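The 9 genes CDKN1A, MDM2, GADD45A, GADD45B, PLK2, PLK3, AEN, SESN1 and ZMAT3 were grouped as p53 target genes. GADD45B was included as a relative of GADD45A and is better known as a response gene of NF-kB and TGF-beta signalling. The rows of all 9 were taken by name from a table of 62710 genes. All 9 were above the limit for testing, a mean of at least 10 normalized counts over the libraries, as were 15230 genes in all. RNA was sequenced from A375R, a human melanoma cell line made resistant to the kinase inhibitor PLX4032, a vemurafenib analogue that the study's methods give as part of its culture medium. The 9 libraries were 3 of control cells that the methods describe as DMSO-treated and the labels call wild type, 3 of cells given 10 µM VHL-r for 2 h, and 3 of cells given 10 µM R4VPL3-1 for 2 h. R4VPL3-1 is a degrader that links a ligand of the ubiquitin ligase RNF4 to a ligand of the ubiquitin ligase VHL, and VHL-r is that VHL-binding moiety alone. All libraries came from 1 cell line, so the values describe that line only. The titles of the controls give no dose or time. The table's column names give 2 h for 2 of the 3 controls, and the control without a time is DMSO replicate 1.

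p53 is a transcription factor that is kept scarce in unstressed cells by MDM2, a ubiquitin ligase that marks it for the proteasome and is itself a p53 target, which closes a feedback loop. When DNA damage or another stress frees p53, it turns on genes that halt the cell cycle, repair DNA, adjust metabolism or start cell death. Many of these genes also answer to other transcription factors, among them those of mitogenic, inflammatory and integrated stress signalling. In melanoma p53 is often held back by its negative regulators. The comparisons asked which of the 9 genes each compound changed after a short exposure, and where the full degrader differed from its VHL-binding moiety.

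The libraries held between 26435568 and 32085626 reads assigned to genes, and a member had between 415 and 5656 reads in a library. Of 13 melanocyte and melanoma markers, 10 had a mean of at least 10, SOX10, MCAM and AXL among them, whereas MLANA was listed at 0 in every library and TYR did not exceed 2.14. The summed level of that list ran from 47431 to 50353 in DMSO, from 36349 to 40891 under VHL-r and from 34004 to 36992 under R4VPL3-1. The 4 leukocyte markers summed to at most 12 and the 3 endothelial markers to at most 33. The 3 keratinocyte markers, mostly KRT14, summed to 346 to 383 in DMSO, 295 to 314 under VHL-r and 242 to 297 under R4VPL3-1. The 4 fibroblast markers summed to 1676 to 2313, 1496 to 3203 and 1770 to 2270 in the same order. SOX10 made up most of the fall in the melanocyte sum, with means of 17550, 10200 and 8405, while MCAM had means of 13360, 12260 and 11790, in DMSO, VHL-r and R4VPL3-1. The part of these shifts in the results below was not tested, and in bulk RNA fewer cells of a kind and less RNA per cell cannot be told apart.

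The promoter windows of these genes differ in the letters that p53 is known to read. RefSeq windows of the GRCh38.p14 build, from 250 bases before to 50 bases after a start site, were found for 8 of the 9 genes, in 14 windows. They were searched on both strands for the p53 half-site consensus without mismatch, for a p53 site made of adjoining half-sites with at most 2 mismatches and the C and G at the core of each half-site kept, and for the AP-1 element TGACTCA, the CRE TGACGTCA, the CArG box, the TATA box TATAAA, the kappaB site, the heat shock element GAANNTTC and the C/EBP-ATF element TGATGNAAT. The allowance of 2 mismatches was set after the window of MDM2 had been read, and a p53 site can overlap a half-site. The 5 windows shown hold the matches of 5 genes described below, and capitals mark the matches.
MDM2 (chr12:68808767-68809066, plus strand, inner start site): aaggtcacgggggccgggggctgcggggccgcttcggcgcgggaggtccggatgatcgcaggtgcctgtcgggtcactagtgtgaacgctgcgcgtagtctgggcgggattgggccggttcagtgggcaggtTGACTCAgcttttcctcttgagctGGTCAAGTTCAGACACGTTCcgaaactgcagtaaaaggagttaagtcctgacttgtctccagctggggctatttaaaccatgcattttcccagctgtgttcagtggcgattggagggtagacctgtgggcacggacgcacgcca
AEN (chr15:88621090-88621389, plus strand): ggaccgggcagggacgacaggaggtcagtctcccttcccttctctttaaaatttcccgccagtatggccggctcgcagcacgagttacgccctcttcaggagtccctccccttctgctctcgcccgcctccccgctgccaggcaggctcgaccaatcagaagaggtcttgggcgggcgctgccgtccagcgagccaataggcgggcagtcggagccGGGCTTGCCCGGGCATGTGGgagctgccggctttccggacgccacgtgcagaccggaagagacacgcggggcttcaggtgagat
PLK2 (chr5:58460037-58460336, minus strand): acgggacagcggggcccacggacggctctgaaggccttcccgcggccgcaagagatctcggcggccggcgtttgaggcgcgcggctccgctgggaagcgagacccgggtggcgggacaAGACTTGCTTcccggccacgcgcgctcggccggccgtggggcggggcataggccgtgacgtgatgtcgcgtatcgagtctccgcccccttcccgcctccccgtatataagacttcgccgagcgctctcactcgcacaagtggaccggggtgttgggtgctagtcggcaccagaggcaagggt
SESN1 (chr6:109008939-109009238, minus strand, inner start site): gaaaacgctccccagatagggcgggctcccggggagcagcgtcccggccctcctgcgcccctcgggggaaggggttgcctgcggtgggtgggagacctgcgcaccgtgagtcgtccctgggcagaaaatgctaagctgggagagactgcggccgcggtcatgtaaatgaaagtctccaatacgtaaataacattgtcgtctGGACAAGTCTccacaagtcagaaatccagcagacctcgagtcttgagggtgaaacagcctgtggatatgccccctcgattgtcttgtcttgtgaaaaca
GADD45B (chr19:2475877-2476176, plus strand): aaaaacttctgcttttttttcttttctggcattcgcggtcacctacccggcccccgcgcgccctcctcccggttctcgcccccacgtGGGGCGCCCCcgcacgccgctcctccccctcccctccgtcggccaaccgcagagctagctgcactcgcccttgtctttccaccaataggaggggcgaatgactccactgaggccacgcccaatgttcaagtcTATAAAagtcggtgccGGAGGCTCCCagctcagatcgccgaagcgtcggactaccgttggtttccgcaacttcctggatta

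In MDM2 the capitals are an AP-1 element 118 bases before the start site and the 20 bases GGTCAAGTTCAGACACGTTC, which form a p53 site beginning 94 bases before it. In AEN they are the p53 site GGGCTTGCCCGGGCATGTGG, beginning 34 bases before the start, whose first half-site is GGGCTTGCCC. A p53 site of this kind was present in 100 of 35116 RefSeq promoter windows (0.285%). PLK2 held the half-site AGACTTGCTT 132 bases before the start, and SESN1 held the half-site GGACAAGTCT 49 bases before its inner start. Half-sites were present in 6.63% of all windows, AP-1 elements in 4.95%, TATA boxes in 11.5% and kappaB sites in 11.3%. GADD45B held the kappaB sites GGGGCGCCCC and GGAGGCTCCC, the second on the reverse strand, and the TATA box TATAAA beginning 31 bases before its start. ZMAT3 held a kappaB site, and none of the letters searched lay in the windows of CDKN1A and PLK3. Bases beyond the windows were not searched, so a gene without a match here may hold a p53 site elsewhere. These are matches of letters and not measured binding.

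The 9 genes did not move as one group. Under either compound CDKN1A, GADD45B, PLK3 and SESN1 rose and MDM2, AEN and PLK2 fell, while GADD45A passed the test under R4VPL3-1 only and ZMAT3 under neither. Fold changes are differences of log2(normalized count + 1) from a limma fit of all 9 libraries, given with their standard error, and a gene was called at an adjusted p of at most 0.05 over 15230 genes. VHL-r changed 7 of the 9, 4 upward and 3 downward, where 19.8% of all tested genes were called, 10.3% upward and 9.51% downward. R4VPL3-1 changed 8 of the 9, 5 upward and 3 downward, where 24.9% of all genes were called, 13.1% upward and 11.8% downward. The median size of the change was 0.30 on the log2 scale for the 9 genes under VHL-r against 0.12 for all genes, and 0.37 against 0.14 under R4VPL3-1. The libraries of the groups did not overlap for 7 of the 9 genes under VHL-r and 8 of the 9 under R4VPL3-1, against 34.3% and 38.0% of all genes. Both comparisons share the DMSO libraries, so their likeness is not independent. The 9 genes were chosen with earlier results of these data known, so these counts are a description.

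**Figure D1:**
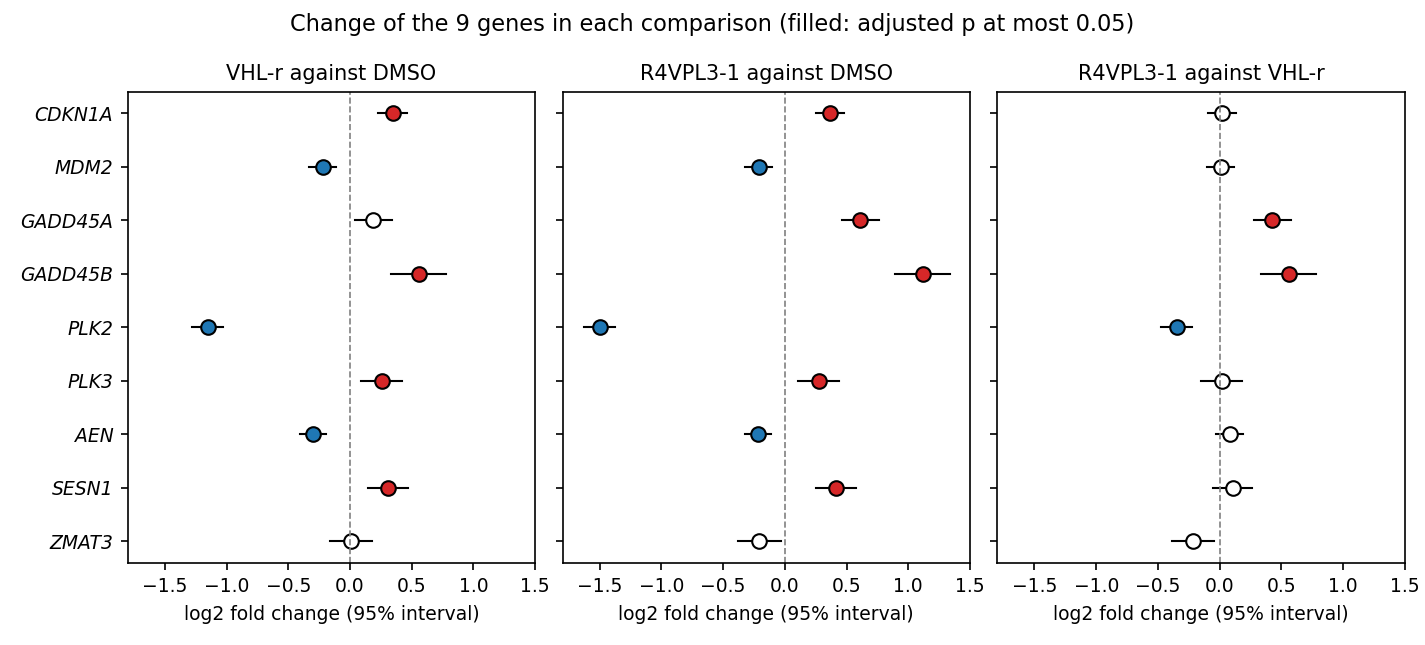
Log2 fold change of each gene (points) with its 95% interval (lines) in the 3 comparisons. Red points were called higher, blue points were called lower and open points were not called; in the comparison of the 2 compounds only GADD45A, GADD45B and PLK2 were called.

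CDKN1A (ENSG00000124762, chr6:36676460-36687337, plus strand) encodes p21, the inhibitor of cyclin-dependent kinases through which p53 arrests the cell cycle. It stood at 3532, 3215 and 3579.6 normalized counts in the DMSO libraries, at 4066, 4294 and 4792 under VHL-r, and at 4389, 4461 and 4439.7 under R4VPL3-1. Every treated library lay above every control library, and the R4VPL3-1 libraries lay within the range of the VHL-r libraries. The gene was 1.27-fold higher under VHL-r (log2 fold change 0.35 ± 0.056, adjusted p = 0.000101) and 1.29-fold higher under R4VPL3-1 (0.37 ± 0.056, adjusted p = 4.04e-05). The compounds differed by 0.02 on the log2 scale, with a 95% interval from -0.10 to 0.13.

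Its relatives did not share this rise. CDKN1B, which encodes the inhibitor p27, stood at 1075, 1339 and 1159 in DMSO, at 795, 819 and 767 under VHL-r, and at 792, 834 and 769.8 under R4VPL3-1. It fell by 0.58 on the log2 scale under VHL-r (adjusted p = 5.42e-06) and fell by 0.57 under R4VPL3-1 (adjusted p = 4.21e-06), with no overlap with the controls. CDKN1C, which encodes p57, was low, with means of 67.5, 50.7 and 45.7 in DMSO, VHL-r and R4VPL3-1, and was not called (adjusted p = 0.242 and 0.0829 against DMSO).

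MDM2 (ENSG00000135679, chr12:68808177-68845544, plus strand), the ligase and target that closes the feedback loop, moved against CDKN1A. It stood at 3289, 3214 and 3485 in DMSO, at 3023, 2778 and 2762 under VHL-r, and at 2849.8, 2749.9 and 3024 under R4VPL3-1. Each treated library lay below each control library. The fall was 1.17-fold under VHL-r (-0.22 ± 0.052, adjusted p = 0.00379) and 1.16-fold under R4VPL3-1 (-0.21 ± 0.052, adjusted p = 0.00436). The compounds differed by 0.01, with an interval from -0.10 to 0.12. Of the exon bases of MDM2, 5.29% are shared with a second annotated gene on the same strand, where reads would not have been assigned.

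The ratio of CDKN1A to MDM2 within a library does not depend on the scaling between libraries. It was 1.07, 1.00 and 1.03 in DMSO, 1.34, 1.55 and 1.73 under VHL-r, and 1.54, 1.62 and 1.47 under R4VPL3-1. Each compound raised it above every control, with an exact two-sided permutation p of 0.1 in each case, the smallest that 3 against 3 libraries allow. Every treated library lay above the controls for CDKN1A and below them for MDM2. The outcome for the ratio was therefore fixed and adds no evidence. Other genes of the feedback arm went separate ways. PPM1D, a phosphatase that dampens p53 signalling, rose by 0.33 under VHL-r (adjusted p = 0.000123) and 0.34 under R4VPL3-1 (adjusted p = 5.54e-05). MDM4, the MDM2 relative that blocks p53 activity, had means of 1058, 1046 and 1204 in DMSO, VHL-r and R4VPL3-1 and was called in no comparison (adjusted p = 0.0716 to 0.92).

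GADD45A (ENSG00000116717, chr1:67685201-67688334, plus strand) and GADD45B (ENSG00000099860, chr19:2476122-2478259, plus strand) encode small stress sensors that bind the p38-activating kinase MTK1 and cell cycle proteins, and they were the members that set the full degrader apart upward. GADD45A stood at 1285, 1039 and 1086 in DMSO, at 1209.9, 1259.5 and 1406 under VHL-r, and at 1738, 1745 and 1713 under R4VPL3-1. The VHL-r libraries overlapped the first DMSO library, while the R4VPL3-1 libraries lay above all others. The difference was 0.19 ± 0.071 for VHL-r (adjusted p = 0.0717) and 0.61 ± 0.071 for R4VPL3-1 (adjusted p = 1.39e-06), a 1.53-fold rise. R4VPL3-1 was 1.34-fold above VHL-r (0.43, interval 0.28 to 0.57, adjusted p = 0.00106). Without DMSO replicate 1 the VHL-r difference was 0.28 with an adjusted p of 0.00577, and without VHL-r replicate 1 it was 0.23 with an adjusted p of 0.047.

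GADD45B stood at 876, 692 and 616 in DMSO, at 912, 1029 and 1269 under VHL-r, and at 1606, 1589.9 and 1499.9 under R4VPL3-1. The groups formed 3 steps without overlap, although the gap between the highest control and the lowest VHL-r library was small. The rise was 1.47-fold under VHL-r (0.56 ± 0.11, adjusted p = 0.000638) and 2.17-fold under R4VPL3-1 (1.12 ± 0.11, adjusted p = 8.87e-08), the largest rise among the 9 genes in both comparisons. R4VPL3-1 was 1.48-fold above VHL-r (0.56, interval 0.34 to 0.78, adjusted p = 0.00371). With limma's robust option this last call was lost (adjusted p = 0.168), and the size of the difference was the same. GADD45B per GADD45A count was 0.682, 0.666 and 0.567 in DMSO, 0.754, 0.817 and 0.902 under VHL-r and 0.924, 0.911 and 0.876 under R4VPL3-1. The third family gene, GADD45G, had a mean of 2.13 and was not tested.

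PLK2 (ENSG00000145632, chr5:58453982-58460139, minus strand) encodes a Polo-like kinase known both as a p53 target and as an immediate early gene of mitogenic signalling. It stood at 4364, 4737 and 4086 in DMSO, at 1875, 1979 and 2071 under VHL-r, and at 1467, 1533 and 1657 under R4VPL3-1. The 3 groups were separate, and this was the largest change among the 9 genes. The fall was 2.22-fold under VHL-r (-1.15 ± 0.06, adjusted p = 2.43e-11) and 2.83-fold under R4VPL3-1 (-1.50 ± 0.06, adjusted p = 1.2e-13). By absolute log2 fold change PLK2 ranked 310 and 226 among 15230 genes. R4VPL3-1 was a further 1.27-fold below VHL-r (-0.35, interval -0.47 to -0.22, adjusted p = 0.00139).

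PLK3 (ENSG00000173846, chr1:44800377-44805990, plus strand), a kinase of the same family linked to stress responses, went the other way. It stood at 639, 609 and 582 in DMSO, at 787, 685 and 718 under VHL-r, and at 757, 808 and 654 under R4VPL3-1. The treated libraries all lay above the controls, the third R4VPL3-1 library by little. The rise was 1.20-fold under VHL-r (0.26 ± 0.08, adjusted p = 0.0267) and 1.21-fold under R4VPL3-1 (0.27 ± 0.08, adjusted p = 0.0151), and the compounds differed by 0.02 (interval -0.15 to 0.18). Both calls were lost when 1 of several libraries was left out. Under VHL-r the adjusted p was 0.0716 without DMSO replicate 2, 0.098 without DMSO replicate 3 and 0.135 without VHL-r replicate 1. Under R4VPL3-1 it was 0.0609 without DMSO replicate 3, 0.0553 without R4VPL3-1 replicate 1 and 0.102 without R4VPL3-1 replicate 2.

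PLK3 per PLK2 count rose from 0.146, 0.129 and 0.142 in DMSO to 0.419, 0.346 and 0.347 under VHL-r and 0.516, 0.527 and 0.395 under R4VPL3-1. Each compound moved this ratio and that of the GADD45 genes clear of the controls, again with an exact permutation p of 0.1, the smallest possible here. For PLK3 and PLK2, which were apart from the controls in opposite directions, this outcome was again fixed. PLK1, the mitotic kinase of the family, had means of 4837, 5003 and 4587 in DMSO, VHL-r and R4VPL3-1, and PLK4, which controls centriole duplication, had means of 1249, 1176 and 1116. Neither was called in any comparison (adjusted p = 0.102 to 0.867).

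AEN (ENSG00000181026, chr15:88621337-88632281, plus strand) encodes a nuclease that takes part in apoptosis downstream of p53. It stood at 5136, 4927 and 4742 in DMSO, at 3829.7, 4224 and 3976 under VHL-r, and at 4445, 4305 and 3974 under R4VPL3-1. No treated library reached the lowest control, and the groups of the 2 compounds overlapped. The fall was 1.23-fold under VHL-r (-0.30 ± 0.051, adjusted p = 0.000198) and 1.16-fold under R4VPL3-1 (-0.22 ± 0.051, adjusted p = 0.00294), with a difference between the compounds of 0.08 (interval -0.03 to 0.19). Its relative ISG20L2 fell as well (-0.17 and -0.26 on the log2 scale, adjusted p = 0.00967 and 0.000165), the first of which was lost without DMSO replicate 1 (adjusted p = 0.0623). ISG20, another exonuclease of the family, had means of 598, 559 and 560.4 in DMSO, VHL-r and R4VPL3-1 and was not called.

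SESN1 (ENSG00000080546, chr6:108984309-109094846, minus strand) encodes sestrin 1, which restrains the growth kinase complex mTORC1. It stood at 377, 408 and 435 in DMSO, at 499, 504 and 509 under VHL-r, and at 539.7, 514 and 574 under R4VPL3-1. The 3 groups lay one above the other without overlap, the compounds close together. SESN1 was 1.24-fold higher under VHL-r (0.31 ± 0.078, adjusted p = 0.00614) and 1.33-fold higher under R4VPL3-1 (0.42 ± 0.078, adjusted p = 0.000369). The compounds differed by 0.10 (interval -0.06 to 0.27), which was not called.

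The other sestrins had larger changes. SESN2, a leucine sensor also induced by the integrated stress response, stood at 565, 604 and 632 in DMSO, 1467, 1504 and 1763 under VHL-r, and 2454, 2209 and 2106 under R4VPL3-1. It rose by 1.39 ± 0.072 and 1.91 ± 0.072 on the log2 scale (adjusted p = 2.43e-11 and 7.46e-14), and R4VPL3-1 was 0.52 above VHL-r (adjusted p = 0.000134). SESN3, a sestrin known to be induced by FOXO factors, stood at 133, 203 and 282 in DMSO, 824, 812 and 845 under VHL-r, and 864, 752 and 915 under R4VPL3-1. It rose by 2.06 ± 0.16 and 2.09 ± 0.16 (adjusted p = 6.47e-09 and 3.06e-09), and the compounds were not called apart (0.02, adjusted p = 0.988).

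ZMAT3 (ENSG00000172667, chr3:178960121-179072215, minus strand) encodes an RNA-binding protein that acts on splicing and mRNA stability. It stood at 936, 979.9 and 1079.97 in DMSO, at 985, 978 and 1051 under VHL-r, and at 799, 795 and 1017 under R4VPL3-1. The VHL-r libraries lay within the range of the controls, and of the R4VPL3-1 libraries the third lay among the controls and the others below them. The difference was 0.01 under VHL-r (interval -0.16 to 0.18, adjusted p = 0.957) and -0.21 under R4VPL3-1 (interval -0.38 to -0.03, adjusted p = 0.0757). Without R4VPL3-1 replicate 3 the latter was -0.32 with an adjusted p of 0.00191, and the difference from VHL-r was -0.33 with an adjusted p of 0.0102, against -0.22 and 0.303 with all libraries. ZMAT2, its tested relative, had means of 2217, 2232 and 2139 in DMSO, VHL-r and R4VPL3-1 and was not called.

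**Figure D2:**
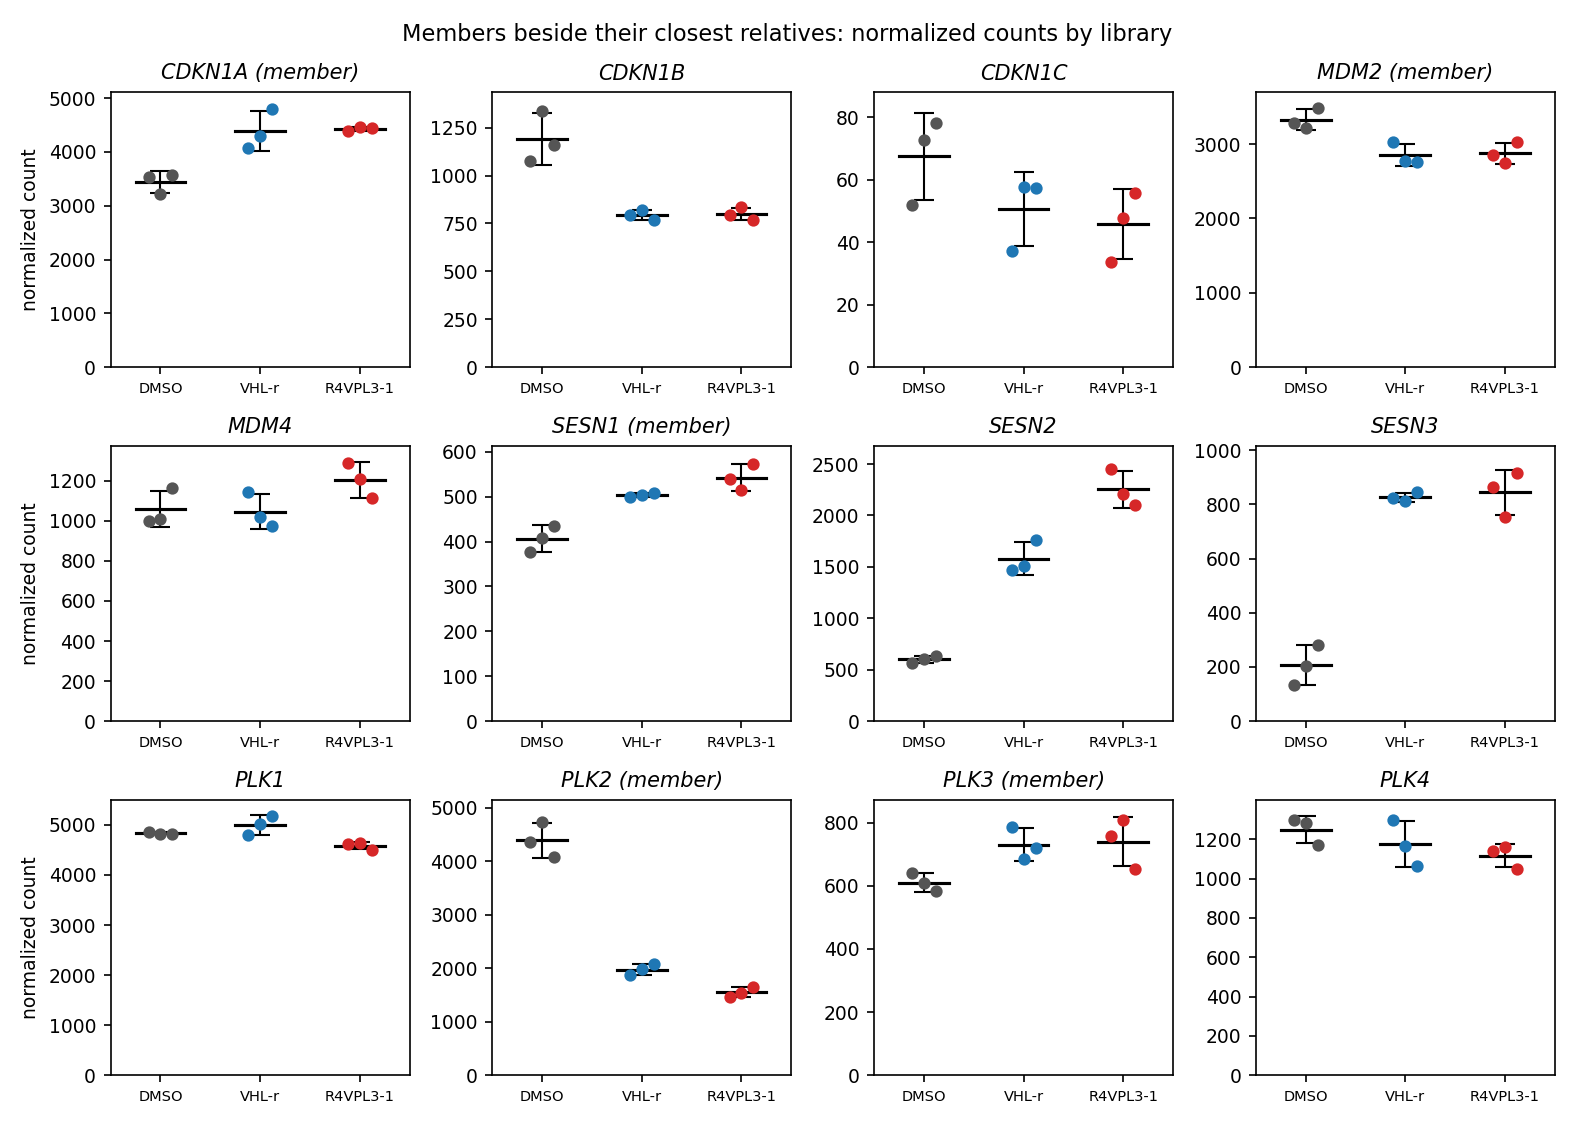
Normalized counts (y axis, from 0) of 5 of the members and 7 of their relatives in each library, with the mean and SD (n = 3) of each treatment. CDKN1A rose where CDKN1B fell, PLK2 fell where PLK3 rose, and SESN2 and SESN3 had larger changes than SESN1.

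Between the compounds, 3 of the 9 genes were called, GADD45A and GADD45B higher and PLK2 lower under R4VPL3-1, where 1.87% of all genes were called, 1.14% upward and 0.729% downward. The groups did not overlap for 4 of the 9, against 14.1% of all genes. The fourth was SESN1, which was not called. For CDKN1A, MDM2, PLK3, AEN and SESN1 the 95% intervals of the difference lay between -0.15 and 0.27 on the log2 scale, which leaves room for differences of that size. ZMAT3 was not called either, at -0.22 with an interval from -0.39 to -0.04 and an adjusted p of 0.303. The intervals are not adjusted for the number of genes tested. Without R4VPL3-1 replicate 1 the number of all genes called between the compounds was 182, against 285 with all libraries.

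Levels can be set beside each other only per length of exon. In DMSO CDKN1A was highest with 1149 ± 66 normalized counts per kb of exon (SD, n = 3), and PLK2 followed with 946 ± 70, AEN with 826 ± 33 and GADD45A with 590.5 ± 68. MDM2 with 401 ± 17 and GADD45B with 340.4 ± 63 overlapped and were not apart beyond their spread. PLK3 stood at 183 ± 8.6, ZMAT3 at 88.4 ± 6.5 and SESN1 lowest at 55.9 ± 4. All neighbours in this order other than MDM2 and GADD45B had libraries that did not overlap. The length was that of all annotated exons of a gene merged, 5.98 kb for AEN, 4.65 kb for PLK2 and 8.31 kb for MDM2. Their canonical transcripts hold 3072, 2786 and 7490 bases, so the order and the gaps between neighbours belong to the length chosen. The order per transcript length was not tested. Under R4VPL3-1 PLK2 dropped from rank 2 to rank 6 with 334 ± 21, and GADD45A and GADD45B moved to ranks 2 and 3 with 899.7 ± 8.7 and 732 ± 27. In that treatment the libraries of GADD45B and AEN overlapped, as did those of MDM2 and PLK2 and of ZMAT3 and SESN1, so these neighbours were not apart beyond their spread.

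**Figure D3:**
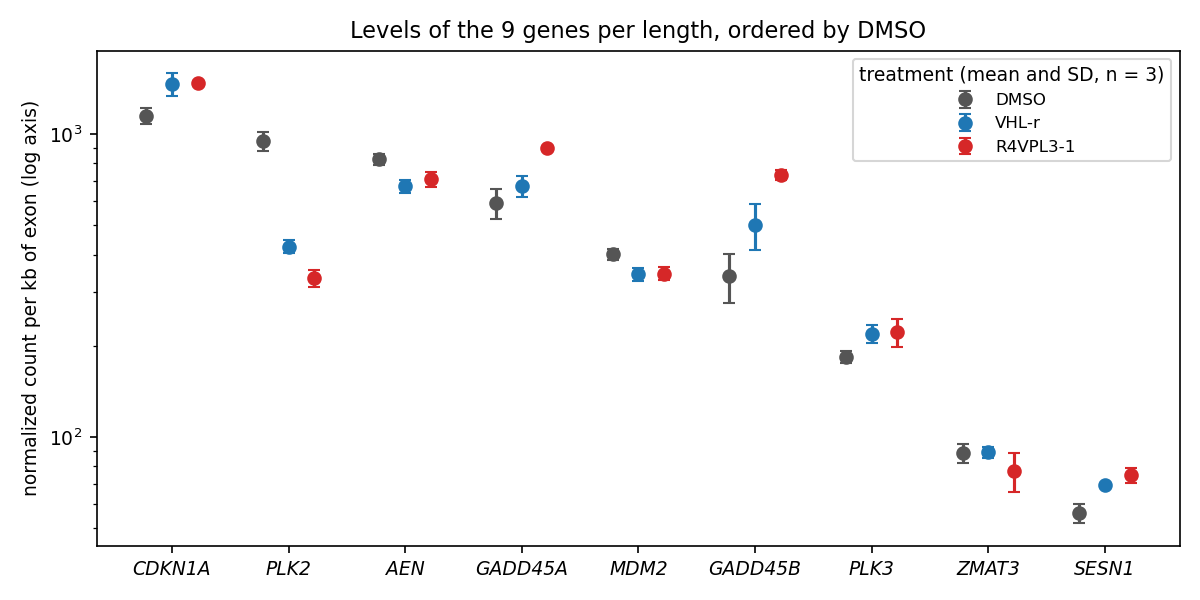
Normalized counts per kb of exon (log axis) of the 9 genes, ordered by their DMSO mean, with SD (n = 3), for DMSO, VHL-r and R4VPL3-1. CDKN1A was highest in each treatment, while PLK2 passed from 946 in DMSO to 334 under R4VPL3-1.

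In gene structure the 9 were mixed. GADD45B spans 2.14 kb and GADD45A 3.13 kb, whereas SESN1 spans 110.5 kb and ZMAT3 112 kb, with a median of 36.5 kb for tested protein-coding genes. The AU-rich pentamer ATTTA, a feature of short-lived mRNAs, occurred 23 times in the 3′ UTR of the canonical MDM2 transcript, 14 times in ZMAT3, 9 times in SESN1, 4 times in AEN, 3 times each in CDKN1A and PLK3, 2 times each in GADD45A and PLK2 and 0 times in GADD45B. The median tested gene held 2. Among the members that rose and among those that fell there were thus genes with few and with many copies. Per kb of 3′ UTR the pentamer occurred 9.62 times in PLK3, 4.04 in MDM2, 3.57 in GADD45A, 3.33 in PLK2 and 2.78 in SESN1. AEN had 2.01, CDKN1A 1.96, ZMAT3 1.80 and GADD45B 0 per kb, against a median of 1.76.

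The mixed directions were also present in a wider list of 81 p53 targets. This list and that of the kinases and cofactors below were written with earlier results of these data known. Their counts are therefore a description and not independent evidence. Of the 81 targets, 72 were tested, and VHL-r raised 21 and lowered 13 of them, while R4VPL3-1 raised 25 and lowered 13. In all, 47.2% and 52.8% of the list were called, against 19.8% and 24.9% of all tested genes, of which 10.3% and 13.1% were called upward and 9.51% and 11.8% downward. These shares of all genes also stand behind the counts of the functional groups given next. The median change of the list was 0.04 on the log2 scale under each compound, against -0.005 and -0.006 for all genes, with rises and falls side by side. The untested 9 had means under 10 normalized counts, and TIGAR, GLS2, GPX1 and RPRM were listed at 0. Reads on more than 1 annotated gene were not counted, so a listed 0 need not mean that a gene was silent. Whether this concerned these genes was not tested. Between the compounds 7 of the 72 were called (9.72%, against 1.87% of all tested genes). BTG2, PMAIP1, SESN2, ATF3 and IER5 were higher and LIF and IER3 lower under R4VPL3-1.

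**Figure D4:**
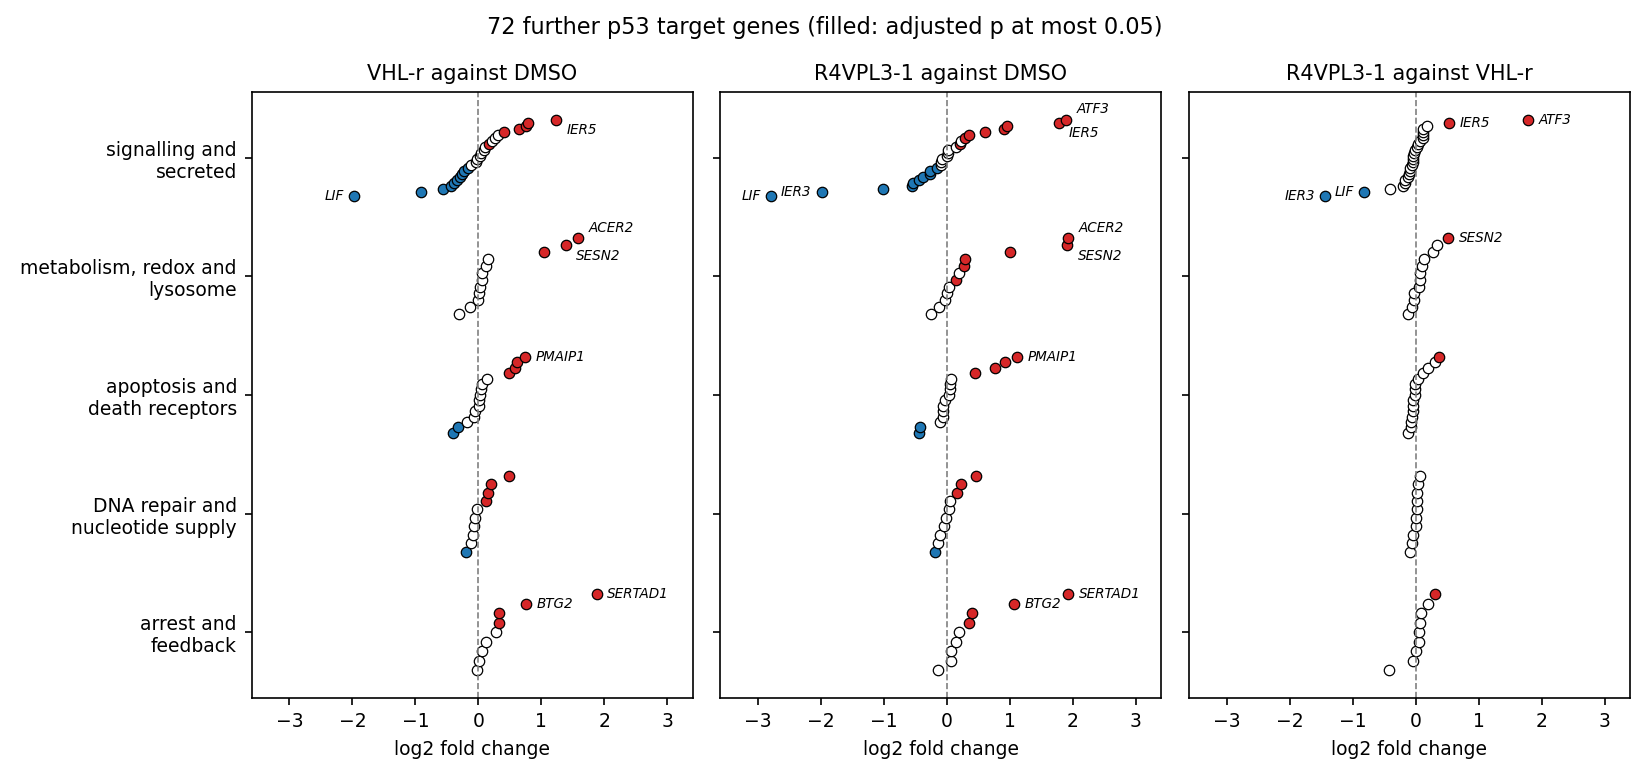
Log2 fold change (x axis) of 72 further p53 targets by functional group in the 3 comparisons, 1 point per gene, ordered by value within a group. Red points were called higher and blue points lower; LIF lay lowest against DMSO and SERTAD1, ACER2 and SESN2 were among the highest.

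The arrest and feedback group is named by the label of the list, and its genes need not all halt the cell cycle. Of its 9 tested genes, 4 were called under each compound, and all 4 rose. They were PPM1D, given above, SERTAD1, BTG2 and BTG1. SERTAD1, a cofactor of cyclin D-CDK4 and E2F, stood at 743, 652 and 750.4 in DMSO, 2425, 2475 and 2999 under VHL-r, and 2537, 2777 and 2849.9 under R4VPL3-1, and rose by 1.88 and 1.93 (adjusted p = 4.03e-13 and 8.96e-14). BTG2, an antiproliferative partner of the CCR4-NOT deadenylase, stood at 419, 459 and 479 in DMSO, 746, 738 and 818 under VHL-r, and 973, 941 and 932 under R4VPL3-1. It rose by 0.76 and 1.07 (adjusted p = 8.53e-08 and 2.99e-10), and by 0.31 between the compounds (adjusted p = 0.0204). Leaving out the first or the second VHL-r library removed that last call (adjusted p = 0.0815 and 0.150), as did leaving out the first or the second R4VPL3-1 library (adjusted p = 0.120 and 0.0712). BTG1, of the same family, rose by 0.33 and 0.40 (adjusted p = 0.000225 and 2.33e-05).

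Among apoptosis genes, 6 of 15 tested were called under each compound, 4 higher and 2 lower. PMAIP1, which encodes the BH3-only protein NOXA, stood at 698, 713 and 665 in DMSO, 1184, 1177 and 1116 under VHL-r, and 1533, 1377 and 1582 under R4VPL3-1. Its rise was 0.74 and 1.11 (adjusted p = 2.34e-08 and 2.72e-11), and R4VPL3-1 exceeded VHL-r by 0.37 (adjusted p = 0.00127). BBC3, which encodes PUMA, rose by 0.61 and 0.92 (adjusted p = 0.000556 and 4.14e-06). TP53INP1, a cofactor of p53 in stress, rose by 0.57 and 0.77 (adjusted p = 0.00233 and 0.000103), and APAF1, the core of the apoptosome, rose by 0.49 and 0.45 (adjusted p = 2.17e-06 and 4.42e-06). The genes that fell were PHLDA3, an inhibitor of AKT (-0.33 and -0.44 on the log2 scale, adjusted p = 2.67e-05 and 3.92e-07), and BCL2L1, which encodes the survival protein BCL-XL (-0.40 and -0.43, adjusted p = 0.000188 and 5.4e-05). BAX and FAS were not called under either compound (adjusted p = 0.331 to 0.593).

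Of 10 DNA repair genes, 5 were called under VHL-r, with POLH, RRM2B, XPC and PCNA higher and POLK lower, and 4 under R4VPL3-1, the same without PCNA. POLH, a translesion polymerase, changed most, by 0.49 and 0.45 (adjusted p = 8.5e-07 and 1.41e-06). Without DMSO replicate 2 the counts fell to 1 under VHL-r and 2 under R4VPL3-1. Of 12 tested metabolic and lysosomal genes, 3 rose under VHL-r (ACER2, SESN2 and CPT1C) and 6 under R4VPL3-1, and none was called lower. These calls were 25% and 50% of the group, against 19.8% and 24.9% of all tested genes. Of all tested genes, 9.51% and 11.8% were called lower. Here ACER2, an alkaline ceramidase, stood at 56.3, 53.1 and 66.9 in DMSO, 180.1, 178 and 175 under VHL-r, and 220.4, 224 and 230.2 under R4VPL3-1, a rise of 1.59 and 1.92 (adjusted p = 8.68e-09 and 2.46e-10).

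The signalling and secreted genes went both ways. Of 26 tested, 6 rose and 10 fell under VHL-r, and 8 rose and 10 fell under R4VPL3-1. LIF, a cytokine of the interleukin-6 family, stood at 5051, 3526 and 2958 in DMSO, 1017, 1117 and 767 under VHL-r, and 476, 638 and 525 under R4VPL3-1. Its fall was -1.97 and -2.79 on the log2 scale (adjusted p = 3.42e-09 and 8.87e-12) and -0.82 between the compounds (adjusted p = 0.00213, or 0.281 with limma's robust option). IER3, an immediate early gene of survival signalling, stood at 4793, 3845 and 4039 in DMSO, 2755, 2912 and 2930.3 under VHL-r, and 947, 1176 and 1066 under R4VPL3-1. Its fall was -0.55 and -1.99 on the log2 scale (adjusted p = 1.38e-05 and 6.98e-14) and -1.44 between the compounds (adjusted p = 5.06e-11).

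ATF3, a stress-induced transcription factor, was raised by the full degrader. It stood at 1071, 657 and 655 in DMSO, 819, 834 and 844 under VHL-r, and 3891, 2855 and 2130.5 under R4VPL3-1. VHL-r gave a difference of 0.11 (adjusted p = 0.723) and R4VPL3-1 a rise of 1.89 (adjusted p = 1.8e-08), and the difference between the compounds was 1.79 (adjusted p = 3.86e-07). IER5, an immediate early gene that acts with HSF1, rose by 1.24 and 1.77 (adjusted p = 7.04e-11 and 1.18e-13) and by 0.53 between the compounds (adjusted p = 6.14e-05).

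Of 14 kinases and cofactors that act on p53 or its partners, VHL-r changed 2 (14.3%, below the 19.8% of all tested genes) and R4VPL3-1 changed 6 (42.9%, against 24.9%). KAT5, an acetyltransferase, was lower under both (-0.26 and -0.28 on the log2 scale, adjusted p = 0.00285 and 0.00121), and DAXX, a chaperone of histone H3.3 that also binds MDM2, was lower too (-0.24 and -0.32, adjusted p = 0.00236 and 9.46e-05). The 4 that rose under R4VPL3-1, ATM, CHEK2, EP300 and CREBBP, changed by 0.17 to 0.23 on the log2 scale. Without R4VPL3-1 replicate 1 none of the 4 was called (adjusted p = 0.0503, 0.205, 0.208 and 0.0708). None of the 14 was called between the compounds, where 1.87% of all tested genes were called.

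The genes whose values over the 9 libraries followed a member most closely were found by Pearson correlation of log2(normalized count + 1), given as a description because the libraries fall into 3 groups. PLK2 was followed by WNT5A (0.999), FLRT3 (0.998) and MEOX2 (0.997), with log2 differences from DMSO between -1.67 and -0.73 under the compounds. GADD45A was followed by HSP90AB1 (0.98), UBB (0.963) and ZNF525 (0.961), and GADD45B by YY1 (0.984), CLU (0.971) and ARVCF (0.964). The correlation does not measure the size of a change. Under VHL-r and R4VPL3-1 YY1 differed from DMSO by 0.07 and 0.12 on the log2 scale, against 0.56 and 1.12 for GADD45B. CLU differed by 0.58 and 1.27, and ARVCF by 0.47 and 0.92. SESN1 was followed by KLHL24 (0.985), ZNF124 (0.983) and ATF7IP2 (0.982). CDKN1A was followed by P3H1 (0.982), SLC6A8 (0.981) and PER1 (0.976), and MDM2 by HPS5 (0.989), EPS15 (0.979) and DYNLRB2-AS1 (0.965). AEN was followed by POLR3D (0.976), NOP14-AS1 (0.976) and FIZ1 (0.973), PLK3 by NCAPD2 (0.978), CDAN1 (0.973) and SUPT6H (0.969), and ZMAT3 by MMP16 (0.98), FHIT (0.962) and CRIPT (0.959). Among the members, the closest pair was GADD45A with GADD45B (0.97), and PLK2 ran most strongly against SESN1 (-0.93).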

How the data were processed

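The authors deposited 1 table of normalized signal per gene, counts of poly(A)-selected, strand-specific reads divided by a size factor for each library. Per the methods and labels, reads were aligned to GRCh38, counted with strand by htseq-count, which leaves out reads on more than 1 gene, and scaled with DESeq2 1.36.0. Dividing by the value of 1 read gave whole reads (within 0.1 read) for 100% of values. The members and the lists of further genes were chosen with earlier results of these data known.

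Values were tested as log2(value + 1) with limma 3.58.1 (R 4.3.3, trend option) over 15230 genes with a mean of at least 10, all 9 libraries in a single-factor fit, calling genes at a p of at most 0.05 after Benjamini-Hochberg adjustment. The steps were tested on simulated data. Named genes are the 9 members, their relatives, listed p53 targets with the largest called changes (up to 5 per comparison) or in a member's function, regulators of p53, and the 3 closest by correlation. Alternatives were pseudocounts of 0.1 and 5, no filter, a mean of at least 50, TMM and upper-quartile scaling, the recovered reads in DESeq2 1.42.0 and in edgeR 4.0.16, limma with the robust option or with a replicate block, only the 6 libraries compared, and each library left out. Gene models are from GENCODE 44 and promoters from RefSeq. The methods call the replicates independent biological repeats. The labels speak of 15 libraries, of which 9 were analysed here.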

Additional observations from a re-analysis of the deposited data

How the results depend on the processing

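The members called numbered 7 under VHL-r, 8 under R4VPL3-1 and 3 between the compounds, and the alternatives other than leaving out a library or adding a replicate block gave 7, 8 and 2 to 3. Leaving out each library in turn gave 6 to 8, 7 to 9 and 3 to 4. For all genes, leaving out each library gave 2286 to 3201 calls under VHL-r, 2866 to 3895 under R4VPL3-1 and 182 to 358 between the compounds. Of 540 pairs of a member's difference and an alternative, 517 kept direction and side of the threshold, 7 lost a call, 6 gained one and 10 changed sign, and the cause was not tested. Every change of sign was of an uncalled difference near 0, with a library left out. Between the compounds, leaving out a library gave -0.034 to 0.084 for CDKN1A, -0.027 to 0.052 for MDM2 and -0.0499 to 0.102 for PLK3, and under VHL-r it gave -0.035 to 0.068 for ZMAT3.

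The labels share replicate numbers, but same-numbered libraries did not deviate together in every pair (correlations of -0.006 to 0.121 over 15230 genes, against -0.148 to 0.098 for other pairs), so no pairing was assumed. With a replicate block 8 members were called under VHL-r and 9 under R4VPL3-1, adding GADD45A under VHL-r (0.19, adjusted p = 0.0487) and ZMAT3 under R4VPL3-1 (-0.21, adjusted p = 0.0155), and 3 between the compounds. The median log2 change of all genes lay between -0.006 and 0.011 under each scaling. Members had at least 415 reads in a library, and the share of counting error in their spread was not tested.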
